A study of Mus musculus with 8 samples.

Results

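Cluster 7 of the deposited cell table is a small group of dividing thymocytes that carry marker genes of γδ T cells and of innate-like T cells. Its members are every cell to which the authors gave the cluster number 7, which holds for 111 of the 10237 cells in the series. The cells came from the thymus of WT mice, labelled C57BL/6J, and of KI mice, labelled GSK3-β KI, a knock-in line of the kinase gene Gsk3b. Double-negative (DN) thymocytes, which lack CD4 and CD8, were enriched by magnetic depletion of cells with MHC class II, CD11b, CD4, CD8 or the immunoglobulin kappa chain and then sorted as DN3 (CD44-CD25+) or DN4 (CD44-CD25-). Each of the 4 combinations of genotype and sort gave 1 library of 5′ single-cell gene expression and 1 library of T cell receptor sequence. Age, sex and the number of mice per library are not given in the sources used here. Cluster 7 is described against clusters 2 and 5, mostly non-cycling cells, and against cluster 4, cycling cells. Clusters 2 and 5 are DN4 clusters, with 2 and 0 cells from the DN3 sort, so comparisons between clusters use the DN4 libraries.

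γδ T cells leave the DN stages after they rearrange the Tcrg and Trd genes, and many of them divide before they mature and leave the thymus. Innate-like αβ T cells, among them invariant NKT cells and precursors of intraepithelial lymphocytes, have rearranged both Trb and Tra, have met a strong receptor signal, and can also lack CD4 and CD8. SOX13 is a transcription factor of the γδ lineage, FCER1G is a signalling adaptor found in innate-like T cells and NK cells, and MKI67 marks cells in active cycle. The pre-T cell receptor chain encoded by Ptcra is made by developing αβ cells that pass β-selection.

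The 4 expression libraries held 16411164 to 30402236 UMIs (unique molecular identifiers, each counted as 1 RNA molecule). Scrublet called 73 of the 10237 cells doublets (0.713%), at 0.139% to 1.71% of the cells of a library, and 9 of them were among the 97 DN4 cells of cluster 7 (9.28%). Of these 9 cells 3 had both receptor chains, 4 had TRB only and 2 had neither. In total 54 barcodes occurred in more than 1 library, 1 of them in cluster 7. In cluster 7 some markers of other lineages were at 0 UMIs in both DN4 libraries: Cd79a of B cells, Lyz2, Cd74 and H2-Aa of myeloid and dendritic cells, and Col1a1 of stroma. Of the 8 myeloid and dendritic markers 6 were in the matrix and 5 of these were at 0, and their summed level came from Cst3, at 97.5 CPM (WT) and 137 CPM (KI), where CPM are a gene's UMIs summed over cells and scaled to the total of those cells. The B cell list (2 of 6 markers in the matrix, 1 at 0) summed to 18.4 and 18.4 CPM. The mast cell and ILC2 list (3 of 6, 1 at 0) summed to 63.3 and 72.7, and the stromal list (4 of 4, 1 at 0) to 76.4 and 54.3. Cpa3 of the mast cell list stood at 1.05 (WT) and 0.853 (KI) UMIs per member. The part of these lists in the results was not tested. Gsk3b itself was at 97.5 CPM in WT DN4 and 98.3 CPM in KI DN4 members; the knock-in is not a deletion, so this level checks no label. With 1 library per group there is no replicate, the intervals below (95%) cover counting error only, and no test between groups or clusters was made.

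The 3 marker genes of the cluster did not mark the same cells. Mki67 (chromosome 7, 135689784 to 135716361, GRCm38, minus strand) had a UMI in 94 of 97 DN4 members (96.9%, interval 91.2% to 99.4%). Sox13 (chromosome 1, 133382303 to 133424377, minus strand) had one in 36 of 97 members (37.1%, 27.5% to 47.5%), against 38.3% of cluster 2, 4.66% of cluster 4 and 0.307% of cluster 5. Fcer1g (chromosome 1, 171229572 to 171234365, minus strand) had one in 16 of 97 members (16.5%, 9.73% to 25.4%), against 27.8% of cluster 5, 2.48% of cluster 2 and 0.621% of cluster 4. Over all 111 cells 40 had a Sox13 UMI, 16 had an Fcer1g UMI and 0 had both. Of the 55 cells with neither, 45 had a UMI of Trdc, the constant segment of the δ chain. A Trdc UMI alone does not set a cell apart here: 73.2% of DN4 members had one against 69.3% of cluster 4. Thinned to 5000 UMIs, the shares were 58.3% against 33.5%, and 9.05% in cluster 5. Thinning left out shallower cells: 1 of 97 members, 3 of 644 cells of cluster 4, 420 of 652 of cluster 5 and 841 of 1571 of cluster 2. Fcer1g thinned in this way was seen in 14.6% of members, 44.4% of cluster 5, 3.42% of cluster 2 and 0.312% of cluster 4. Cd3e, a subunit of every T cell receptor, had a UMI in 111 of 111 cells, and Ptcra in 0 of 111. The markers that come with the label of cycling γδ and innate-like cells were thus present, but in different cells for its parts. They are among the counts the clusters rest on, so their presence does not test the label.

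Most members came from the DN4 sort. Cluster 7 took 22 of 1477 cells in WT DN4 (1.49%, exact binomial interval 0.936% to 2.25%) and 75 of 2577 in KI DN4 (2.91%, 2.30% to 3.63%). In the DN3 sort it took 7 of the 2885 WT cells (0.243%) and 7 of the 3298 KI cells (0.212%). Against clusters 2, 5 and 7 together the DN4 share was 2.34% in WT (1.47% to 3.52%) and 5.44% in KI (4.30% to 6.77%). Both measures were higher in the KI library than in the WT library, and whether other libraries of these genotypes would differ was not tested.

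By the authors' phase calls all 111 cells were in S or G2M. Of the WT DN4 members 16 were in S and 6 in G2M (27.3% in G2M, 10.7% to 50.2%), and of the KI DN4 members 32 were in S and 43 in G2M (57.3%, 45.4% to 68.7%). The same direction was seen in cluster 4, with 37.5% (WT) and 58.5% (KI) of cells in G2M. Cycling calls also occurred outside cluster 7, in 9.92% (WT) and 8.20% (KI) of cluster 2 and in 4.94% (WT) and 11.0% (KI) of cluster 5. Median depth per cell was 16692 UMIs in WT and 12221 in KI members, above cluster 2 (5252 and 4298) and cluster 5 (4508 and 3768) and below cluster 4 (23594 and 23071).

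The receptor libraries, sequenced apart from the expression counts, split cluster 7 into 3 classes. In DN4, 18 of 97 members had both a productive TRA and a productive TRB chain (18.6%, 11.4% to 27.7%), 14 had TRB only, and 65 had neither chain (67.0%, 56.7% to 76.2%). A productive TRB chain was found in 9 of 22 WT members (40.9%, 20.7% to 63.6%) and 23 of 75 KI members (30.7%, 20.5% to 42.4%), so the intervals of the libraries overlap. Without called doublets the shares were 27.8% (5 of 18, 9.69% to 53.5%) and 28.6% (20 of 70, 18.4% to 40.6%). Then 15 members had both chains and 10 TRB only. Cluster 2 had TRB in 18.7% of its DN4 cells and both chains in 5.47%. Cluster 5 had TRB in 89.8% of WT and 89.9% of KI cells, and cluster 4 in 97.2% and 95.4%. By these shares cluster 7 lay between clusters 2 and 5 in both libraries and apart from cluster 4, where 610 of 644 cells had TRB only. Without called doublets, however, its intervals include the share of cluster 2. Cells with TRB had a median of 57 TRB UMIs in cluster 7 and 26 in cluster 2, and whether chain recovery differed was not tested. Sequences of γ and δ chains were not analysed here.

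**Figure D1:**
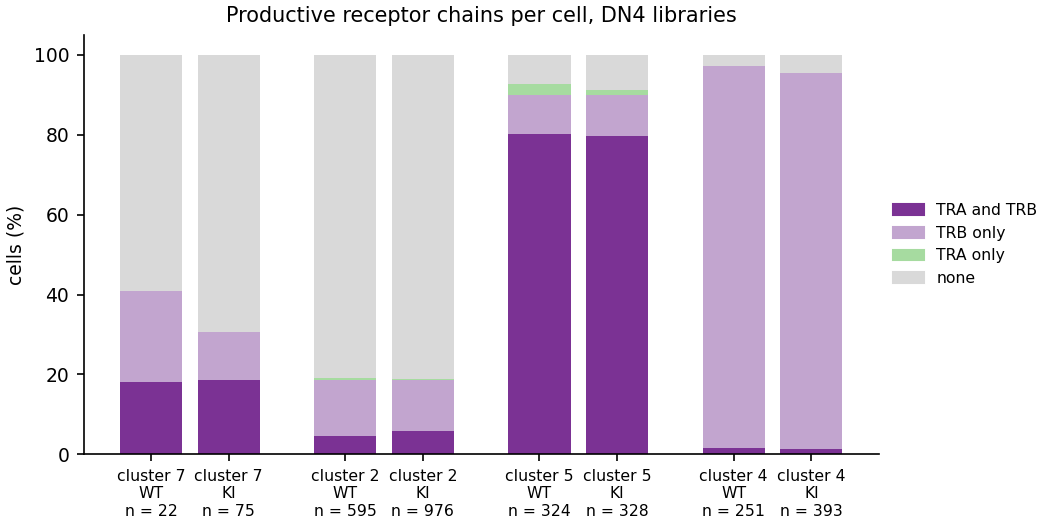
Share of cells (%, bars) with both a productive TRA and TRB chain, TRB only, TRA only or no chain, for clusters 7, 2, 5 and 4 in the WT and KI DN4 libraries; n is the number of cells. Both chains were found in 18.6% of cluster 7, against 5.47% of cluster 2, and most cells of cluster 4 had TRB only.

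The 38 TRB rearrangements of cluster 7 used 15 V genes, and 0 of them were seen in another cell of the same library. Near-identical contigs of one cell were counted apart, and TRA chains are not part of this count. Members without a chain give no such information. The junctions below are examples from 4 cells with both chains. They are CDR3 coding sequences, written 5′ to 3′, and capitals mark bases that match neither the germline end of the V segment nor the J segment. The 4 cells are the WT cells with Fcer1g and both chains, at 18 and 12 Fcer1g UMIs, and the KI cells with the most, at 24 and 33; none of them was called a doublet.
WT DN4 cell, TRAV11 and TRAJ18: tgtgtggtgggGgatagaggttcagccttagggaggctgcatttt
WT DN4 cell, its TRBV13-1 and TRBJ1-2: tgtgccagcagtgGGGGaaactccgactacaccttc
WT DN4 cell, TRAV12-2 and TRAJ23: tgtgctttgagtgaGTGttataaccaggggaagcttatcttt
WT DN4 cell, its TRBV13-1 and TRBJ2-1: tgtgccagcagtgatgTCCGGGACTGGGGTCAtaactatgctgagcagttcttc
KI DN4 cell, TRAV6-5 and TRAJ42: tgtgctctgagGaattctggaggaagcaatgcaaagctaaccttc
KI DN4 cell, its TRBV19 and TRBJ2-5: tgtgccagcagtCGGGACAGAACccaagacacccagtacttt
KI DN4 cell, TRAV21-DV12 and TRAJ57: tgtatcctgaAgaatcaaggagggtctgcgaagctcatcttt
KI DN4 cell, its TRBV12-2 and TRBJ1-2: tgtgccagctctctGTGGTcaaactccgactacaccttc
The last cell also held a second TRA and a second TRB contig. Across the cells with both chains whose segments could be matched (18 for TRA, 17 for TRB) the median number of bases outside the segments was 2.5 and 11, close to 3 and 10 in clusters 2 and 5. The median CDR3 length was 42 bases for both chains in all 3 clusters.

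The first of these cells carried the TRAV11-TRAJ18 chain, the invariant α chain of type I NKT cells, which read lipids on CD1d. It was 1 of 4 cells with a productive TRA chain in the WT members, against 0 of 14 in the KI members. The same V and J pair was found in 3 WT and 9 KI cells of cluster 2, and in 1 WT and 0 KI cells of cluster 5. All were 45 bases long, and they were identical to that of the cluster 7 cell or differed from it by 1 or 2 bases; capitals now mark the differing bases.
Cluster 7 cell and 2 cells of cluster 2: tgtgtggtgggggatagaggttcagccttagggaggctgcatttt
4 cells of cluster 2 and 1 cell of cluster 5: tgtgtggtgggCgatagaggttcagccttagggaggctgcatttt
2 cells of cluster 2: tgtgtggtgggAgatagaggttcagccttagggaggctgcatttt
The remaining 4 variants were seen in 1 cell of cluster 2 each. So 1 dividing cell of cluster 7 had this receptor, and most cells with it lay in cluster 2, the cluster in which few cells had both chains.

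Within cluster 7, receptor class and marker genes went together cell by cell. Of the 18 members with both chains 13 had an Fcer1g UMI, 15 had Il2rb, 1 had Sox13 and 3 had Trdc. Leaving out the 3 called doublets among them, 13 of 15 had Fcer1g and 0 had Sox13. Of the 78 members without a chain (both sorts) 72 had Trdc, 32 had Sox13 and 3 had Fcer1g. The 15 members with TRB only, 1 of them from KI DN3, resembled the latter: 10 had Trdc, 7 had Sox13 and 0 had Fcer1g. Median depth was 13688 UMIs in cells with both chains and 14457 in cells without, so the classes were close in depth. In cluster 2 Sox13 and Fcer1g also lay in different cells: 602 of 1571 cells had Sox13, 39 had Fcer1g and 0 had both. In cluster 5, 2 of 652 had Sox13, too few to show a separation, 181 had Fcer1g and 1 had both. Receptor class did not go with these markers in cluster 2 as it did in cluster 7. Of its 86 cells with both chains 24 had Sox13 and 11 had Fcer1g, and 28 of its 39 cells with Fcer1g did not have both chains.

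**Figure D2:**
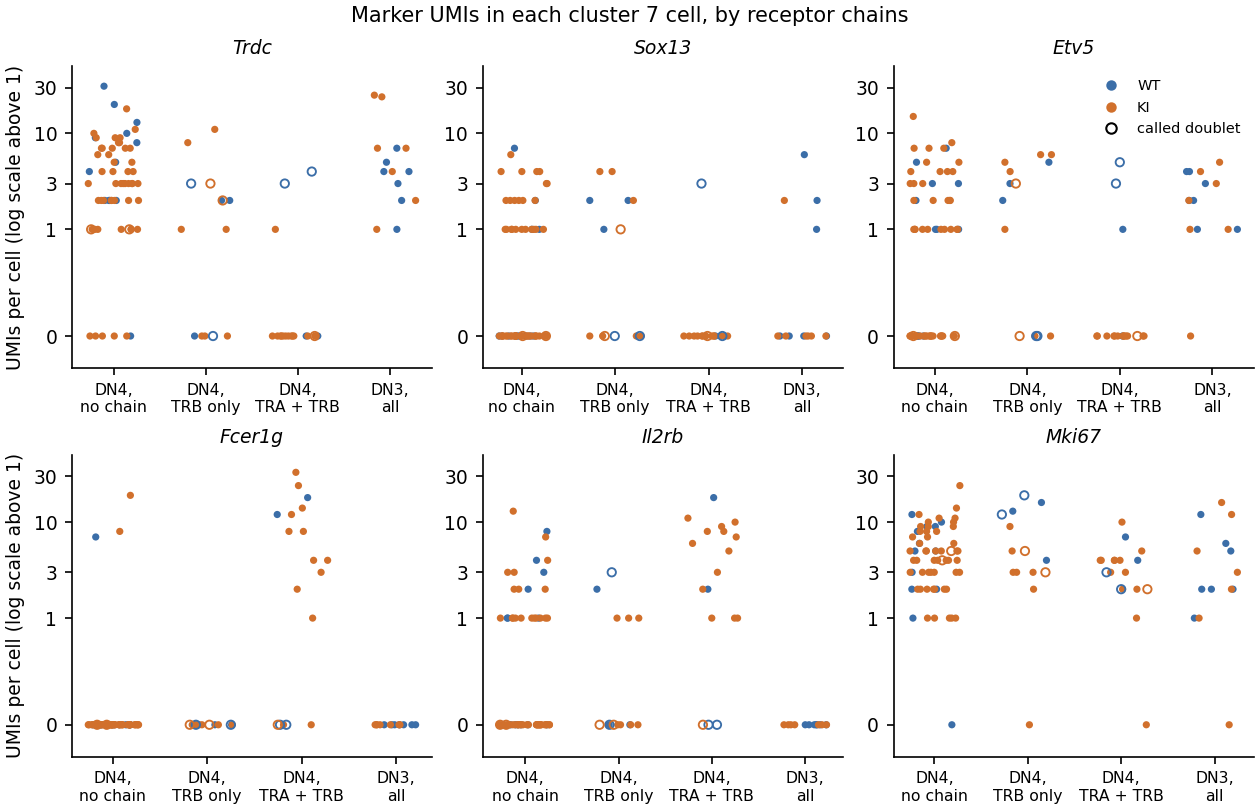
UMIs per cell (log scale above 1, points spread sideways) of Trdc, Sox13, Etv5, Fcer1g, Il2rb and Mki67 in each of the 111 cluster 7 cells, by receptor class for DN4 and together for DN3. WT cells are blue, KI cells orange and called doublets open; Fcer1g is at 0 in every TRB-only and DN3 cell, while 13 of 18 cells with both chains hold it.

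Seen against cells of the same class, both kinds of member were a small part. Cells without a chain in cluster 7 were 13 of 494 such cells of clusters 2 and 7 in WT DN4 (2.63%, 1.41% to 4.46%) and 52 of 843 in KI DN4 (6.17%, 4.64% to 8.01%). Cells with both chains were 4 of 264 such cells of clusters 5 and 7 in WT (1.52%, 0.414% to 3.83%) and 14 of 275 in KI (5.09%, 2.81% to 8.39%). Without called doublets the latter were 2 of 262 (0.763%) and 13 of 273 (4.76%). In both classes the KI value was above the WT value, and the intervals overlap for the cells with both chains. For the cells without, they do not overlap over all cells but do without called doublets. There the shares were 13 of 492 in WT (2.64%, 1.414% to 4.476%) and 50 of 839 in KI (5.96%, 4.455% to 7.78%).

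Within cluster 7 the cells with both chains (18) were then set against those without (65), with DN4 UMIs summed. A gene was called when it was at least 2-fold apart with an interval that excluded equality and lay on the same side in both libraries, among genes at 50 CPM or more. Of 3472 genes, 124 were called higher (3.57%) and 145 lower (4.18%) in cells with both chains. As 2 of the 4 WT cells with both chains were called doublets, the count was repeated without doublets, with 161 higher and 156 lower, and 192 of the 269 calls were shared. The wider split by TRB, 32 against 65 cells, called 44 higher (1.32%) and 58 lower (1.74%) of 3330, of which 69 of 102 were called again without doublets.

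Among the receptor genes, 10 of the 12 γδ receptor genes measured were lower in cells with both chains and 0 higher (median log2 ratio -1.97, against 0.01 over all genes). Trdc stood at 524 CPM (WT) and 307 CPM (KI) in cells without chains, and at 84.7 and 5.95 in cells with both. Trgv2, a γ variable segment, stood at 805 and 637 against 375 and 89.2. In the WT library the γδ level in cells with both chains came from the 2 called doublets among 4 cells: without them Trdc and Trgv2 were at 0. Of the γδ fate genes 4 of 12 were lower and 0 higher, namely Sox13, Blk, a Src-family kinase, Etv5, an ETS factor, and 5830411N06Rik, a scavenger receptor gene. Etv5 was at 112 and 147 CPM without chains and, doublets left out, at 28.6 and 0 with both. V segments of one family share sequence, so reads of single segments may be split between them.

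On the other side stood the innate-like genes, of which 5 of 11 were higher and 0 lower (median 1.60): Fcer1g, Il2rb, Klra1, Ctsw and Slamf6. Fcer1g was at 363 CPM (WT) and 672 CPM (KI) in cells with both chains against 34.0 and 40.1 in those without. Il2rb, the β subunit of the IL-2 and IL-15 receptors, was at 242 and 428 against 97.0 and 69.8. Ctsw, the protease cathepsin W, was at 194 and 607 against 141 and 200. Klra1, an inhibitory receptor of the Ly49 family, was at 387 and 137 against 0 and 0, and rested on 2 WT and 4 KI cells, all with both chains and with Fcer1g. Members of that family are near-identical, so reads of Klra1 could belong to a relative. Tnni1, a troponin gene, was not on a list but stood next to Klra1 at the top of the ranking: 14 of 18 cells with both chains held it, at 230 and 553 CPM, against 3 of 65 without (4.85 and 13.4). Fcer1g, Il2rb, Ctsw, Klra1, Slamf6 and Tnni1 were higher still in cells with both chains when doublets were left out, with Fcer1g at 857 and 706 CPM.

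Some genes of recent signalling and growth were also higher in cells with both chains, with 6 of 17 signal-strength and immediate early genes higher and 1 lower (median 0.35). Egr1, induced by receptor signals, was at 145 and 143 CPM against 29.1 and 32.7. Myc, the driver of growth programmes, was at 48.4 and 131 against 14.6 and 19.3, and 1 cell supplied 42.3% of its UMIs. Homing genes went the other way, with 5 of 8 lower and 1 higher (Cd69); S1pr1, Ccr7, Ccr9 and Plac8 were among the lower genes. Ccr9, a chemokine receptor for gut and thymus, was at 446 and 454 CPM without chains and, doublets left out, at 0 and 0 with both. Of the interferon-response genes 3 of 5 were lower (Isg15, Bst2 and Ly6e), and of the G2M genes 5 of 44, while 0 of 35 S-phase genes were called. By phase, 8 of 18 cells with both chains and 38 of 78 without (both sorts) were in G2M.

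Gzma, the gene of granzyme A, showed how far the called doublets reach. It was at 1276 and 2378 CPM in cells without chains and at 2650 CPM in WT but 0 in KI cells with both. Its UMIs in the latter came from 2 cells, both called doublets, and without them it was at 0 in both libraries. In TRB-only cells it was at 2726 CPM and in cluster 5 at 1.21 and 9.20 CPM. This TRB-only value includes 4 called doublets among 14 cells. With these kept in, the TRB-only members followed the cells without chains in Gzma, Trgv2 (881 CPM) and Cd247 (872 CPM), a receptor signalling chain. They differed from them in Trdv1, a δ variable segment, at 602 CPM in 6 of 14 cells against 53.4 CPM in 3 of 65 cells; without the 4 called doublets it was at 493 CPM.

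Against cluster 2, the bulk of γδ-type cells in these sorts, cluster 7 was set library by library, and a gene was called when at least 2-fold apart the same way in both. Of 3532 genes, 327 were higher (9.26%) and 179 lower (5.07%). The higher genes were led by cell cycle genes, which are among the counts the clusters rest on and are given only as values: 38 of 42 G2M genes and 31 of 34 S-phase genes were higher. Mki67 was at 401 CPM (WT) and 371 CPM (KI) against 10.8 and 13.1, and Rrm2, a subunit of ribonucleotide reductase, at 796 and 653 against 17.8 and 17.2. Genes of nucleotide synthesis were higher in 10 of 17 cases. Mxd3, Esco2, Spc25, Nusap1 and Ccna2 led the ranking.

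Lists of γδ fate, quiescence and homing genes lay below cluster 2. Of 16 γδ fate genes 6 were lower and 0 higher (median -1.12, against -0.01 over all genes), among them Maf, Rora, Blk, Cd163l1 and 5830411N06Rik. Maf and Rora encode transcription factors of IL-17-producing γδ cells. Maf was at 0 and 11.3 CPM against 112 and 86.1 in cluster 2. Rora was at 15.8 and 15.4 against 126 and 95.3, log2 ratios of -3.00 (-4.45 to -1.86) and -2.63 (-3.48 to -1.90). Sox13 was lower in both libraries without reaching 2-fold in KI, at 50.1 and 63.5 CPM against 167 and 111. Thinned to 5000 UMIs, Sox13 was seen in 19.8% of 96 cells of cluster 7 and 37.1% of 730 cells of cluster 2. The thinning left out 1 and 841 shallower cells, so for cluster 2 it covers the deeper cells only. Unthinned shares over all cells were 37.1% and 38.3%. The 11 γδ receptor genes measured all lay below cluster 2 by the mean of the libraries' log2 ratios, with 1 called lower (Trdv5) and a median of -0.66.

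Of 12 quiescence genes 7 were lower and 0 higher (median -1.20): Btg1, Foxp1, Slfn2, Tsc22d3, Pik3ip1, Txnip and Ypel3. Btg1, an antiproliferative gene, was at 113 and 143 CPM against 633 and 488. Pik3ip1, an inhibitor of PI3 kinase, was at 10.5 and 27.6 against 106 and 104. Klf2, a transcription factor of resting T cells, was at 179 and 255 against 211 and 335 and was not called. Homing genes were lower in 4 of 11 cases (S1pr1, Ccr9, Ccr4, Itgae) and interferon-response genes in 6 of 10 (Isg15, Irf7, Zbp1, Irf9 and Rtp4 among them). Ccr9 was at 453 and 388 CPM against 1170 and 995. Samhd1, which hydrolyses deoxynucleotides, was at 10.5 and 10.2 against 94.2 and 101, and 3 of 65 members without chains held it. CPM are shares of a cell's RNA, and the cells of cluster 7 held more of it. Counted as UMIs per cell, 2244 genes were higher than in cluster 2 and 6 lower: Samhd1, Mxd4, Gm20400, Tcp11l2, Maf and Rora.

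To hold the receptor class fixed, cells without chains in cluster 7 (65) were set against those of cluster 2 (1272), by the rule used for the receptor classes: 2-fold apart over summed libraries and on the same side in each. Of 3519 genes, 367 were higher (10.4%) and 267 lower (7.59%). Lower were 8 of 16 γδ fate genes (the 6 above, Sox13 and Sox4), 7 of 12 quiescence genes, 4 of 9 homing genes and 4 of 11 interferon-response genes. Sox13 was at 53.4 and 75.7 CPM against 169 and 121, under 2-fold in KI, so it is called by this rule and not by that of the comparison over all cells. Trdc was at 524 and 307 against 611 and 557 and was not called. Signal-strength and immediate early genes were lower in 6 of 17 cases, Egr1, Cd69, Fos, Junb, Dusp5 and Tnfaip3. Fcer1g lay under 50 CPM here, at 34.0 and 40.1 CPM in 3 of 65 members against 3.43 and 9.05 in cluster 2; over all cells it was at 97.5 and 143 CPM against 18.6 and 26.7, with 13 of its 16 positive members having both chains.

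Against cluster 5, where 79.9% of cells had both chains, 361 of 3619 genes were higher in cluster 7 (9.98%) and 266 lower (7.35%). As UMIs per cell 2750 were higher and 33 lower. All 10 γδ receptor genes measured were higher (median 2.82), with Trdc at 322 and 240 CPM against 24.2 and 33.3. Of 13 innate-like genes 8 were lower and 2 higher: Fcer1g was at 97.5 and 143 CPM against 297 and 330, and Il2rb at 119 and 125 against 554 and 556. Of the chemokine genes, Ccl5 was at 0 and 6.14 CPM against 230 and 237, and Xcl1 at 0 and 19.4 against 103 and 151, with 16 of its 19 UMIs in KI cells with both chains (95.2 CPM there). Signal-strength and immediate early genes were lower in 12 of 18 cases and higher in 0 (median -1.52). Nr4a1, an orphan nuclear receptor induced by receptor signals, was at 224 and 352 CPM against 800 and 1058. Of the BCL2 family 3 of 5 were lower, the survival genes Bcl2 and Mcl1 and the death gene Bcl2l11.

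The clusters differ in receptor class, so cells with both chains were also compared alone, 18 in cluster 7 and 521 in cluster 5. Of 3619 genes, 378 were higher (10.4%) and 337 lower (9.31%). Without called doublets 504 of the 715 calls were shared. Here 4 of 13 innate-like genes were lower and 2 higher (median -0.01). Fcer1g, at 363 and 672 CPM against 283 and 362, and Il2rb, at 242 and 428 against 540 and 563, were not called, while Klra1 and Sh2d1a were higher. Ccl5, Xcl1, Cd160 and Tigit, a checkpoint receptor gene, were lower in this comparison as well, with Ccl5 at 0 and 17.8 CPM against 200.5 and 236. Signal-strength and immediate early genes were lower in 9 of 18 cases (median -1.01), with Nr4a1 at 411 and 262 CPM against 804 and 1028. Bcl2 was at 72.6 and 95.2 CPM against 349 and 279, Bcl2l11 at 0 and 11.9 against 63.9 and 62.6, and 6 of 11 quiescence genes were lower. The 33 genes lower in the whole of cluster 7 as UMIs per cell included Ccl5, Xcl1, Nr4a2, Tigit and Tcp11l2.

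**Figure D3:**
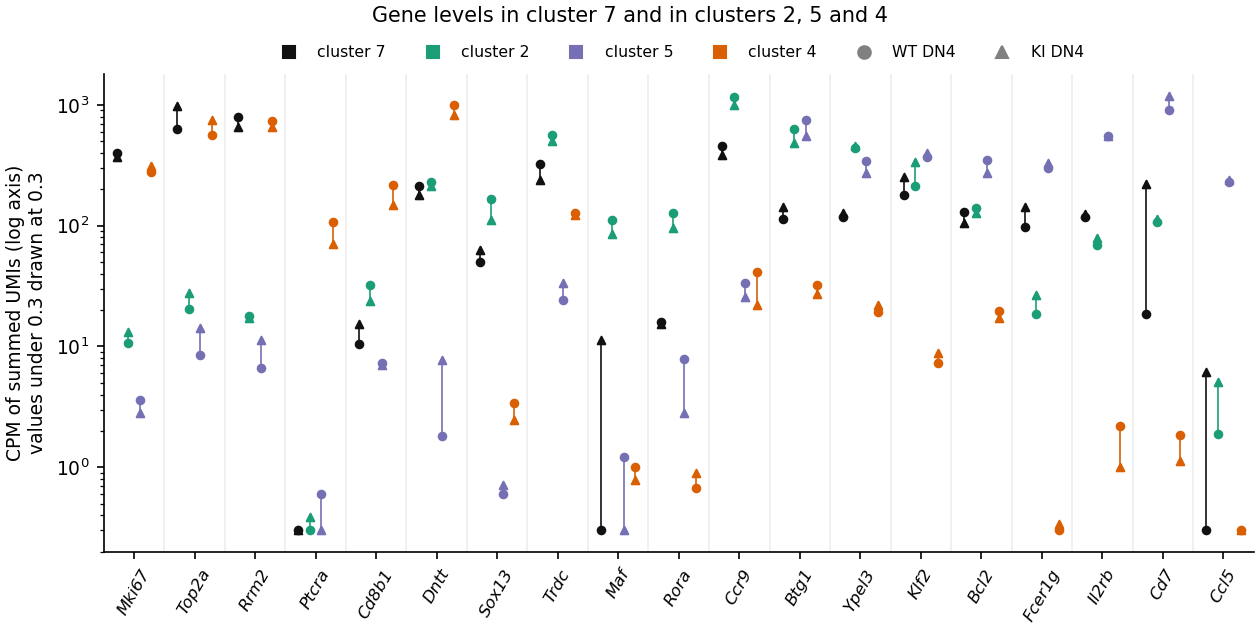
CPM of summed UMIs (log axis; values under 0.3 drawn at 0.3) of 19 genes in clusters 7, 2, 5 and 4; circles are the WT and triangles the KI DN4 library, with a line between them. Cluster 7 reaches cluster 4 in Mki67 (401 and 371 against 278 and 314 CPM) but has 0 Ptcra, and lies below cluster 2 in Maf and Rora.

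Cluster 4, whose cells carried TRB and Ptcra, was close to cluster 7 in cell cycle genes. Of 42 G2M genes 0 were called in either direction (median 0.14) and of 35 S-phase genes 1 was lower (Cdca7), where the call covered 316 genes higher (9.5%) and 95 lower (2.86%) of 3326. With TMM scaling, which moved the median of all genes by -0.26, the counts were 228 higher and 201 lower, and as UMIs per cell 159 and 443, so the split between the directions depends on the scaling. Of the genes of the coreceptors and the double-positive stage, 4 of 8 were lower (Cd8b1, Dntt, Arpp21 and Satb1) and 1 higher (Ccr9). Ptcra was at 0 CPM in both libraries against 107 and 70.8, Cd8b1 at 10.5 and 15.4 against 217 and 147, and Dntt, the enzyme that adds junctional bases, at 213 and 180 against 993 and 816. Rag1 was at 0 against 27.7 and 28.4 CPM, below the level set for a call. Myc, at 18.4 and 36.8 CPM against 102 and 98.6, was the single growth gene called of 11 (list median -0.95). Npm1, a nucleolar protein gene, was at 1760 and 1205 against 3230 and 3264, and Ncl at 627 and 529 against 1195 and 1295. The D-type cyclins differed in kind: Ccnd3 was lower (229 and 247 against 579 and 567) and Ccnd2 higher (111 and 65.5 against 31.4 and 21.1).

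Genes of both kinds of member stood above cluster 4: 9 of 10 γδ receptor genes, 8 of 12 γδ fate genes, 7 of 10 innate-like genes, 6 of 8 homing genes, 8 of 14 genes of CD3 signalling and 5 of 9 quiescence genes were higher, and 0 of each were lower. S1pr1, the receptor for exit from the thymus, was at 60.6 and 45.0 CPM against 0 and 0.225. Klf2 was at 179 and 255 against 7.26 and 8.91, and Bcl2 at 129 and 104 against 19.6 and 17.4. Cd53, a tetraspanin gene, was at 287 and 223 against 4.22 and 3.83, and 60 of 65 members without chains and 16 of 18 with both held it.

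Only 5 of 3049 genes (0.164%) were at least 2-fold above each of clusters 2, 5 and 4 in both libraries: Klra1, Sapcd2, Carhsp1, Cit and Tcf19. Cit, the kinase citron of cytokinesis, was at 58.0 and 71.7 CPM against 25.5 and 32.8 in cluster 4. Tcf19, a gene active at the entry into S phase, was at 195 and 150 against 96.6 and 70.9. Carhsp1, an RNA-binding protein gene, was at 81.7 and 81.9 CPM against 31.7 and 37.3 in cluster 2, its nearest. Sapcd2, Cit, Carhsp1 and Tcf19 had UMIs in cells with both chains and in cells without, whereas Klra1 was held only by the 6 cells named above. The values that chose these genes are the values given here.

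The 14 DN3-sorted members were of the γδ kind. Trdc had a UMI in 14 of 14, Etv5 in 13, Sox13 in 4 and Fcer1g and Il2rb in 0, and 1 of 14 had a TRB chain. Il2ra, the gene of the CD25 that defines the DN3 sort, had a UMI in 1 of them. The 13 without chains were set against the 65 of the DN4 sort with genotypes summed, under the same call rule applied to WT and KI. Of 3439 genes, 202 were higher (5.87%) and 297 lower (8.64%) in the DN3 sort. Trdc (185 and 499 CPM against 524 and 307), Trgv2 (527 and 799 against 805 and 637), Etv5 and Blk were not called.

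The sorts also differed in phase. Of the cells without chains, 1 of 7 (WT) and 2 of 6 (KI) were in G2M in the DN3 sort, against 4 of 13 and 31 of 52 in the DN4 sort. How far phase enters the differences below was not tested. Lower in the DN3 sort were 7 of 10 quiescence genes (median -1.62), 5 of 7 innate-like genes, 4 of 7 homing genes, 4 of 5 interferon-response genes and 15 of 44 G2M genes. Gzma was at 35.6 and 88.8 CPM against 1276 and 2378, with UMIs in 4 of the 14 DN3 members against 43 of 65. Klf2 was at 0 and 44.4 CPM against 160 and 264, S1pr1 at 7.13 and 0 against 87.3 and 56.4, and Itgb7, the β7 integrin, at 0 and 22.2 against 199 and 145. Ypel3 and Il2rb were at 0 in both DN3 libraries against 112 and 129 CPM and 97.0 and 69.8 CPM. Higher were 6 of 10 growth genes and 5 of 17 of nucleotide synthesis, with Npm1 at 2616 and 2075 CPM against 1494 and 1051. Cd5, whose level follows the strength of receptor signals, was at 428 and 344 CPM against 126 and 174, and Lef1, a partner of β-catenin, at 1297 and 732 against 548 and 431. The DN3 values rest on 7 WT and 6 KI cells. For each gene named here the WT and KI values of one sort lay on the same side of both values of the other, except for the genes given above as not called.

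**Figure D4:**
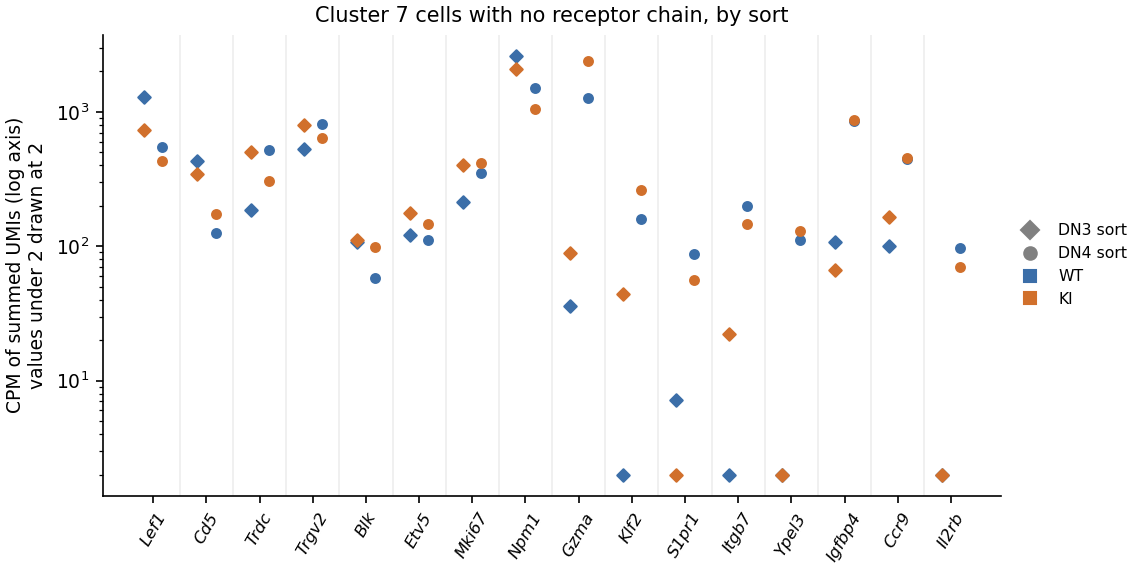
CPM of summed UMIs (log axis; values under 2 drawn at 2) of 16 genes in cluster 7 cells without a receptor chain; diamonds are the DN3 and circles the DN4 sort, blue WT and orange KI. Gzma, Klf2, S1pr1, Itgb7, Igfbp4 and Ccr9 were lower and Lef1, Cd5 and Npm1 higher in the DN3 sort, while Trdc and Trgv2 overlapped.

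Between genotypes, KI against WT members of the DN4 sort, 58 of 3359 genes were at least 2-fold higher with an interval that excluded equality (1.73%) and 62 lower (1.85%). Without called doublets 77 were higher and 75 lower, and 89 of the 120 calls were shared. With TMM scaling the counts were 74 and 46, and as UMIs per cell, where the median of all genes moved to -0.42, they were 21 and 281. The cell cycle lists moved with the phases: 7 of 44 G2M genes were higher and 0 lower (median 0.50), while 3 of 37 S-phase genes were lower and 0 higher (median -0.39). Cdc20, an activator of mitotic exit, was at 68.5 CPM (WT) and 201 CPM (KI), Cenpf at 103 and 214, and Ung, a uracil glycosylase of S phase, at 116 and 50.2. Cluster 4 showed log2 ratios of 0.70, 0.73 and -1.95 for these genes, and the KI library had more members in G2M in both clusters. Among S-phase cells alone, 62 of the 120 called genes were called again; Cenpf had a log2 ratio of 0.48 there and Ccnb1, at 1.08 over all cells, one of -0.63.

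**Figure D5:**
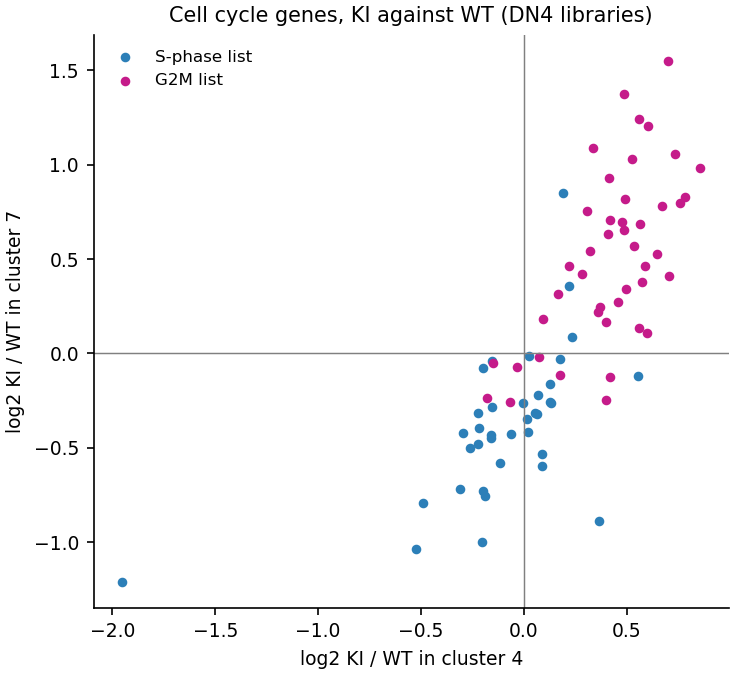
Log2 ratio of KI to WT CPM in cluster 7 (y axis) and in cluster 4 (x axis) for the S-phase and G2M list genes at 50 CPM or more in cluster 7, DN4 libraries; each point is a gene. G2M genes lie mostly above 0 on both axes and S-phase genes mostly below 0 in cluster 7, with Ung at -1.21 and -1.95.

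Other genes called lower in KI, receptor segments left out, differed in how they behaved outside cluster 7. Apobec3, a cytidine deaminase gene, was at 187 CPM (WT) and 27.6 CPM (KI) in members (log2 ratio -2.76, -3.46 to -2.10), and its ratios in clusters 2, 5 and 4 were -1.46, -2.12 and -2.20. Gm47283, a predicted gene, was at 55.3 and 1.02 CPM, with ratios of -4.27, -4.96 and -4.64 in the other clusters. Hist1h3a, a histone gene whose near-identical copies can share reads, was at 71.2 and 21.5 CPM and likewise lower in KI in all 3. Drc1 and Ly6d, at 52.7 and 87.0 CPM (WT) against 12.3 and 23.5 CPM (KI), had ratios of mixed sign in the other clusters. Drc1 had ratios of 0.42, 0.33 and -0.58 in clusters 2, 5 and 4, and Ly6d of 0.25, -1.77 and -0.25. Cd7, a surface receptor of T and NK cells, was at 18.4 CPM (WT) and 223 CPM (KI) in members (3.60, 2.53 to 4.93), with ratios of 0.08, 0.39 and -0.72 in clusters 2, 5 and 4. Of its 218 UMIs in KI members 180 lay in the cells with both chains, at 1071 CPM, against 12.1 CPM in the 4 WT cells with both, of which 2 were called doublets, and 1 cell held 29.8% of the UMIs of that class. Klra1 went the other way, at 84.3 CPM (WT) and 23.5 CPM (KI), on 2 and 4 cells.

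The interferon-response list had 2 of 5 genes higher in KI members and 0 lower. Ifi27l2a was at 31.6 CPM (WT) and 166 CPM (KI), and Isg15 at 23.7 and 54.3, and both were called again among S-phase cells. The ratios of Ifi27l2a in clusters 2, 5 and 4 were 0.87, 0.14 and -0.68, and those of Isg15 -0.16, -0.48 and -0.66. Hes1, a target of Notch, was at 50.1 CPM (WT) and 16.4 CPM (KI), with ratios of -1.16, 0.23 and -1.30 in clusters 2, 5 and 4. The innate-like list had 1 of 10 higher (Cd7) and 1 lower (Klra1). Genes of γδ fate (0 of 12), CD3 signalling (0 of 14), quiescence (0 of 10), homing (0 of 8) and the Wnt and GSK3 list (0 of 7) had no called member, although these counts rest on 22 WT cells and most single genes on few UMIs. Sox13 was at 50.1 and 63.5 CPM, Fcer1g at 97.5 and 143, Mki67 at 401 and 371 and Trdc at 322 and 240, all under 2-fold.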

How the data were processed

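The authors deposited raw UMI counts of 15653 genes in 10237 cells with a table of each cell's library, cluster number and phase, and contig tables of the receptor libraries with UMI counts per chain. Versions 3.1.0 and 6.0.1 of Cell Ranger, with mm10 as the build, stand in the submitters' processing notes. How cells were filtered, clustered or phased is not given in the sources used here. Cells were joined to receptor chains by library and barcode, and a chain counted when productive. UMIs were summed over cells and divided by the total (CPM), genes at 50 CPM or more in either side were kept, and ratios got exact conditional binomial intervals and shares exact Clopper-Pearson ones (95%). Ratios against 0 used a floor of 3 counts per library. Doublets were called with Scrublet (scanpy 1.11.5) and kept in. TMM factors came from edgeR 4.0.16 in R 4.3.3, used for scaling alone. The ratio code was tested on simulated data. Positions are from GENCODE vM21. The members and the 31 gene lists (419 of 445 genes in the matrix) were chosen with earlier results of these data known. Genes were named by rule: the 10 highest and 10 lowest called in each comparison ranked by the weaker library, the list members, and the 3 marker genes, without receptor segments, ribosomal, mitochondrial, Xist and Y-linked genes. The comparisons of cells with both chains, of cells without, and of the sorts were added after the files were seen, as were the alternatives by S-phase cells and by UMIs per cell. Alternatives were the minimum level, scaling, equal weight of cells, doublets, single libraries, denominators, contig UMIs and thinning.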

Additional observations from a re-analysis of the deposited data

Results flagged for a closer look

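In each of the following genes the WT DN4 and the KI DN4 library put cluster 7 on opposite sides of another cluster with intervals apart from equality, and the difference between the libraries was not tested. Against cluster 2, Cd7 had a log2 ratio of -2.54 in WT and 0.97 in KI, Tcrg-V7, a γ variable segment, -4.62 and 0.82, and Apobec3 0.48 and -0.82. Against cluster 5, Fbl, a nucleolar methyltransferase gene, had 0.41 and -0.58. Against cluster 4, the mitotic gene Cdc20 had -0.62 and 0.24, and the S-phase genes Mcm2 and Rrm1 0.30 and -0.50, and 0.37 and -0.25. In cluster 7 the Cd7 UMIs were mostly those of KI cells with both chains, and Tcrg-V7 was held by 8 of 65 DN4 cells without chains, 1 of which supplied 32.7% of its UMIs in that class.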

How the results depend on the processing

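No paired analysis was possible because each genotype and sort has 1 library; clusters were compared within each DN4 library, without a test, since they rest on the same counts. The DN4 values rest on 22 WT and 75 KI cells and the DN3 values on 7 and 7, which limits genes of few UMIs. A minimum of 20 CPM in place of 50 gave 856, 1113 and 677 called genes against clusters 2, 5 and 4 (506, 627 and 411 as reported), 297 for KI against WT (120), 235 for TRB against no TRB (102) and 1164 for cells without chains against cluster 2 (634). A minimum of 100 CPM gave 295, 374, 231, 42, 39 and 369 in the same order, and 122 for both chains against none (269), 372 for both chains against cluster 5 (715) and 244 for DN3 against DN4 (499). The WT library alone gave 943 against cluster 2 and 1049 against cluster 5. UMIs per cell, an alternative chosen after seeing the data, gave 2250 against cluster 2, 2783 against cluster 5 and 302 for KI against WT. Against the cells of clusters 2, 5 and 7 the DN4 shares were 2.34% in WT and 5.44% in KI in place of 1.49% and 2.91%. Thinning to 5000 UMIs lowered the KI share with Sox13 from 37.3% to 18.7%, with Trdc from 72.0% to 56.0% and with Mki67 from 97.3% to 81.3%. As UMIs per cell, 333 of 506 calls against cluster 2 were made again, 394 of 627 against cluster 5 and 254 of 411 against cluster 4. For KI against WT 83 of 120 were. Of 4961 values of single genes under the other alternatives 4419 kept direction and call, 539 lost the call and 3 changed direction. A minimum of 20 CPM cannot remove a call made at 50 CPM, so the values under it could not count as lost. The 3 that changed direction were Drc1 at 0.15 and Ccnb1 at -0.63 for KI against WT among S-phase cells (chosen after seeing the data), and Ctsl at -0.26 for TRB against no TRB without doublets. The cause of these changes was not tested, apart from those that follow from fewer genes or cells.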
